A study of Homo sapiens with 18 samples.

Results

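The nuclear-encoded subunits of the mitochondrial respiratory chain were followed in CAMA-1 and ZR-75-1 cells treated with a CDK4/6 inhibitor. The genes were chosen by symbol, as protein-coding genes named NDUFA, NDUFB, NDUFC, NDUFS or NDUFV with a number (complex I), SDHA to SDHD (complex II), UQCR genes (complex III), the general forms of the COX subunits (complex IV) and ATP5F1, ATP5M and ATP5P genes (complex V, the ATP synthase). This rule found 78 genes among the 60656 gene rows of the table: 37 of complex I, 4 of complex II, 8 of complex III, 10 of complex IV and 19 of complex V. It used no measured value. NDUFA4 stands with complex I through its name, although the protein is now known as a subunit of complex IV, and ATP5MGL, a paralogue of the ATP synthase gene ATP5MG, was taken in by the name pattern.

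CAMA-1 and ZR-75-1 are established oestrogen receptor-positive breast cancer lines, used here as wild-type parental cells, so that each stands for 1 line and not for a tumour type. Cells received abemaciclib at 500 nM, palbociclib at 500 nM or an equal volume of the solvent DMSO for 5 days. The 6 groups are therefore CAMA-1 with DMSO, abemaciclib or palbociclib and ZR-75-1 with DMSO, abemaciclib or palbociclib, with 3 libraries each. Both drugs inhibit the kinases CDK4 and CDK6, and polyadenylated RNA was read near its 3′ end (Lexogen QuantSeq).

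Complexes I to IV of the inner mitochondrial membrane pass electrons from NADH and succinate to oxygen, complexes I, III and IV pump protons, and complex V uses the proton gradient to make ATP. Each complex except II joins subunits from nuclear genes with subunits from mitochondrial DNA, so a working chain needs both genomes. Proliferating cells use the chain for ATP and to reoxidise NADH.

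Library totals ran from 2308442 to 4146549 counts, and the members held 1.72% to 2.33% of them. As a measure of counting depth, the median was 193 CPM over the members tested and 21.0 CPM over all 11987 genes tested across both lines. CPM values are counts per fixed library size, after TMM scaling, which takes most genes as unchanged. Apart from this measure of depth they are compared here between groups only. The kit and the gene models do not allow levels to be ranked between genes. Replicates of a group had Pearson's r of 0.980 to 0.986 across genes, with a chi-square per degree of freedom of 1.83 to 5.19, so that none was a copy of another. All 7 luminal epithelial markers were above 10 CPM in every library, and 4 were higher and 1 lower in 3 comparisons with DMSO, while palbociclib in ZR-75-1 gave 1 higher and 3 lower. ESR1 was higher in all 4 and KRT19 in all but the last. The 12 stromal, endothelial and immune markers summed to 46 to 109 counts in a library, and 4 of them were at 0 throughout. Of these, COL3A1 was called higher with both drugs and COL1A1 lower with abemaciclib in CAMA-1. The p-values measure the spread between the replicates of a single experiment, and in such bulk RNA a lower level can come from fewer expressing cells or from less RNA in each cell, which cannot be told apart.

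The filter on low counts left 75 of the 78 members in each line. A gene was called at a Benjamini-Hochberg adjusted p under 0.05 in edgeR's quasi-likelihood test, adjusted over all genes tested, and adjusted p below always means this value. The error after a log2 fold change is its SE, and that after a mean level is the SD of 3 libraries. Of the 75 members, 61 were called in at least 1 of the 4 comparisons of a drug with DMSO, and 14 were called in none. Of the 10124 genes tested in both lines, 63.5% were called in at least 1. This and the other shares of all genes are not matched for counting depth, which affects how small a change can be called. Members called lower prevailed in CAMA-1 and members called higher in ZR-75-1 with palbociclib, whereas with abemaciclib in ZR-75-1 both directions were common.

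The summed level of complex I showed the split between the lines. In CAMA-1 DMSO gave 7397 ± 188 CPM, abemaciclib 6789 ± 141, and palbociclib 6728 ± 123, and all drug libraries lay below all DMSO libraries. In ZR-75-1 the sums were 6974 ± 110.2 CPM (DMSO), 6902 ± 179 (abemaciclib) and 7441 ± 53.1 (palbociclib). NDUFA4, counted here by name, made up 909 ± 36.8, 1091 ± 26.5 and 1038 ± 26.7 CPM of these sums in that order. In CAMA-1 it made up 714 ± 34.8, 723 ± 39.2 and 644 ± 38.7 CPM, and sums without NDUFA4 were not taken. The palbociclib libraries of ZR-75-1 were all above its DMSO libraries, and the abemaciclib libraries overlapped them.

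The sums of complexes III, IV and V followed that of complex I in ZR-75-1 with palbociclib. A sum weighs its genes by their counts, so a few genes can carry it. In that line the complex III sum stood at 2399 ± 41.0 CPM (DMSO), 2662 ± 58.6 (abemaciclib) and 2862 ± 50.7 (palbociclib), and no libraries of these groups overlapped. The complex IV sum there was 3405 ± 93.7 CPM, 3566 ± 82.9 and 3784 ± 63.1 in that order, also without overlap. In CAMA-1 the complex III sum was 3178 ± 102 CPM, 3068 ± 86.5 and 3045 ± 71.7, and both drug groups overlapped DMSO. With palbociclib in ZR-75-1, 3 of 8 tested members of complex III were called higher. There the mean of UQCRQ went from 463 CPM (DMSO) to 683 (palbociclib) and that of UQCR11 from 360 to 530. The complex V sum was 5313 ± 129 CPM with DMSO and 5831 ± 84.3 with palbociclib in ZR-75-1, while CAMA-1 gave 6002 ± 123 (DMSO), 5682 ± 124 (abemaciclib) and 5456 ± 44.8 (palbociclib). Thus the complex V sum of palbociclib cells stood above DMSO in one line and below it in the other. Complex II, the only complex with no mitochondrially encoded subunit, summed to between 280 and 365 CPM over all 18 libraries, and its drug groups overlapped the DMSO groups except for abemaciclib in ZR-75-1. In that exception SDHC alone had a mean of 203 of 291 CPM with DMSO and 253 of 344 with abemaciclib.

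**Figure D1:**
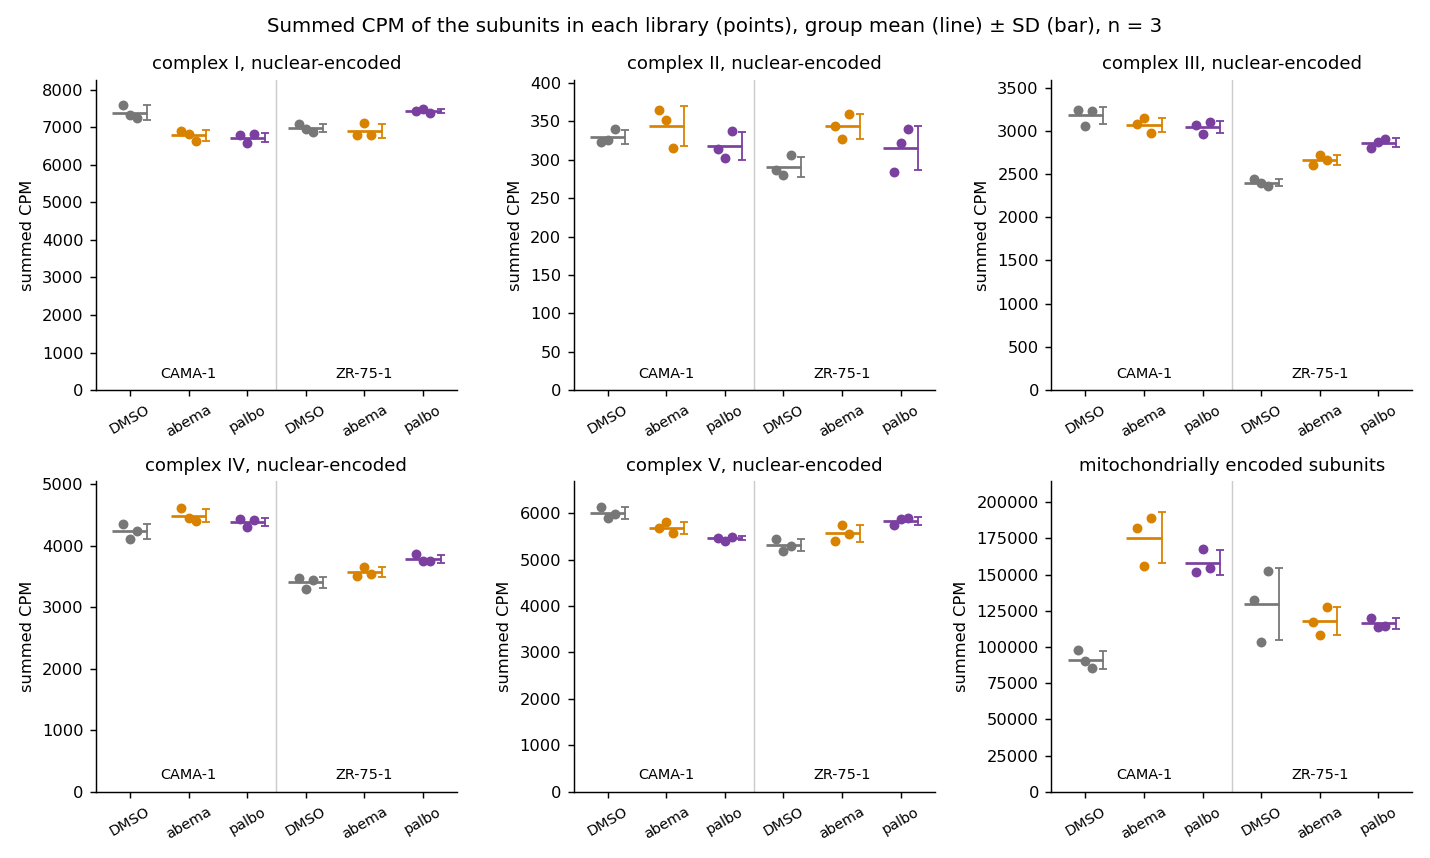
Summed CPM of the subunits of each complex in each library (points), with the group mean (line) and SD (bar), n = 3; DMSO is grey, abemaciclib orange and palbociclib purple, and the last panel holds the 13 subunits from mitochondrial DNA. With palbociclib the complex I sum lies near 6728 CPM in CAMA-1, under its DMSO mean of 7397, and near 7441 in ZR-75-1, over its DMSO mean of 6974.

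In CAMA-1, abemaciclib left 31 members lower and 10 higher than DMSO among the 75 tested. Over all 11053 genes tested in this comparison, 20.1% were called lower and 20.3% higher. The median log2 fold change was -0.12 over the members and 0.010 over all genes, and the members' median was -0.072 without DMSO replicate 1. With palbociclib 36 members were lower and 7 higher, where all genes gave 18.7% lower and 18.4% higher, and the medians were -0.16 and 0.0011. The 7 higher were 4 without DMSO replicate 3 or without palbociclib replicate 3. With both drugs 29 members were lower and 5 higher, and of all genes 15.6% were lower and 15.5% higher with both. The drug and DMSO libraries did not overlap for 28 of the 31 members lower with abemaciclib and 33 of the 36 lower with palbociclib, near the 91.3% and 91.9% of all genes called lower.

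The members called lower in CAMA-1 came from every complex except II. With palbociclib they were 17 of 35 tested members of complex I, 4 of 8 of complex III, 6 of 10 of complex IV and 9 of 18 of complex V, and with abemaciclib 17, 4, 4 and 6. Most changes were small. NDUFA12, an accessory subunit of the peripheral arm of complex I, had 123, 125 and 130.3 CPM with DMSO, 82.3, 81.1 and 83.7 with abemaciclib and 76.0, 74.0 and 70.1 with palbociclib. Its log2 fold change was -0.65 ± 0.093 at adjusted p = 2.0e-07 with abemaciclib and -0.81 ± 0.092 at adjusted p = 1.3e-09 with palbociclib, and every drug library lay below every DMSO library. NDUFC2, a subunit of the membrane arm, fell by 0.55 and 0.67 on the log2 scale with the respective drugs (adjusted p = 1.2e-04 and 6.0e-06). The read-through gene NDUFC2-KCTD14 overlaps it on the same strand, so its counts are less certain.

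The genes of cytochrome c1 and cytochrome c, which the rule did not include, were called lower with both drugs in CAMA-1. CYC1, the cytochrome c1 subunit of complex III, fell by 0.55 with abemaciclib and 0.50 with palbociclib on the log2 scale in CAMA-1 (adjusted p = 1.3e-07 and 9.3e-07). CYCS, the mobile cytochrome c, fell by 0.32 and 0.48 (adjusted p = 0.0015 and 6.1e-06). In ZR-75-1 only CYC1 was called, lower with abemaciclib (-0.49 at adjusted p = 2.2e-04).

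A few members went the other way in CAMA-1. COX6C, a small structural subunit of complex IV, had 944, 819.9 and 891 CPM with DMSO, 1336, 1227 and 1244 with abemaciclib and 1370, 1284 and 1403 with palbociclib. This is a log2 fold change of 0.49 ± 0.061 at adjusted p = 9.0e-09 and 0.58 ± 0.061 at adjusted p = 1.5e-10, the largest called rise of a member with each drug in this line, and no drug library overlapped a DMSO library. The sum of complex IV, COX6C included, came to 4231 ± 118 CPM (DMSO), 4485 ± 108 (abemaciclib) and 4388 ± 68.6 (palbociclib). All abemaciclib libraries of this sum lay above all DMSO libraries, and the palbociclib libraries overlapped them. Without COX6C, a comparison chosen after its values were seen, the sums were 3346 ± 55.8, 3216 ± 60.1 and 3036 ± 21.9, and all drug libraries lay below all DMSO libraries. NDUFA3, an accessory subunit of complex I, rose with abemaciclib (0.38 ± 0.091 at adjusted p = 7.0e-04), from 90.7, 88.8 and 91.7 CPM with DMSO to 122, 117 and 122, and with palbociclib it gave 0.18 at adjusted p = 0.11. NDUFB3, another subunit of complex I, was called higher with palbociclib (0.31 at adjusted p = 0.032), but its groups overlapped. That call was lost with DESeq2, with library totals as the only scaling and without DMSO replicate 3 (0.14, adjusted p = 0.37), palbociclib replicate 1 or palbociclib replicate 3. NDUFS1, a core subunit of complex I that holds iron-sulfur clusters, also rose with both drugs, by 0.38 with abemaciclib and 0.33 with palbociclib. Under that scaling NDUFS1 was no longer called with palbociclib.

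The share of counts from mitochondrial DNA moved with the drugs in CAMA-1, from 14.8% to 16.6% in the DMSO libraries to 23.4% to 26.1% with abemaciclib and 22.9% to 24.9% with palbociclib. The members' counts were nearly the same when mitochondrially encoded genes were left out of totals and scaling, with 31 lower and 10 higher with abemaciclib and 35 lower and 7 higher with palbociclib. Scaling by library totals alone moved the median log2 fold change of all genes by more, to -0.12 with abemaciclib and -0.10 with palbociclib, and gave 38 members lower and 4 higher and 42 lower and 1 higher. Under that scaling all genes split into 2958 lower and 1657 higher with abemaciclib and 2710 lower and 1543 higher with palbociclib.

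In ZR-75-1, palbociclib left 29 of 75 members higher and 4 lower than DMSO, where all 11017 genes tested gave 14.5% higher and 13.4% lower. The median log2 fold change was 0.13 over the members and -0.0080 over all genes, and the 4 lower were 2 without DMSO replicate 1. The members called higher were 13 of complex I, 3 of complex III, 5 of complex IV and 8 of complex V. Abemaciclib gave 19 higher and 12 lower, against 17.9% higher and 18.3% lower over all genes, and a median of 0.026 over the members. That median lay near 0 and ran from -0.0017 without abemaciclib replicate 2 to 0.055 without abemaciclib replicate 1, with 0.011 without DMSO replicate 2 and 0.048 without DMSO replicate 1. Of the called members, complex I had 7 higher and 10 lower and complex V 7 higher and 2 lower. With both drugs 17 members were higher and 4 were lower in this line, where all genes gave 10.9% and 10.3%.

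UQCRQ, a small subunit of complex III, had the largest called rise of a member with palbociclib in ZR-75-1. It had 482, 454 and 453 CPM with DMSO, 504, 521 and 495 with abemaciclib and 693, 687 and 669.8 with palbociclib, and the log2 fold change with palbociclib was 0.56 ± 0.066 at adjusted p = 1.1e-09. The abemaciclib value was 0.12 at adjusted p = 0.15. In CAMA-1 its log2 fold changes were -0.0063 and -0.022, with adjusted p = 0.95 and 0.81. NDUFB3, a small membrane-arm subunit of complex I, had the largest called rise with abemaciclib in ZR-75-1. Its values were 39.3, 33.1 and 47.0 CPM with DMSO, 80.0, 92.7 and 83.7 with abemaciclib and 38.4, 64.1 and 61.9 with palbociclib, a log2 fold change of 1.10 ± 0.14 at adjusted p = 3.9e-09 with abemaciclib. The palbociclib call of NDUFB3 in this line (0.45, adjusted p = 0.014) rested on overlapping groups and was lost without palbociclib replicate 2 (0.32, adjusted p = 0.15), without palbociclib replicate 3 or without DMSO replicate 2.

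ATP5F1D, the delta subunit of the central stalk of the ATP synthase, rose in ZR-75-1 with both drugs. It had 81.9, 75.8 and 97.1 CPM with DMSO, 126, 154 and 125 with abemaciclib and 106, 122 and 135 with palbociclib, log2 fold changes of 0.67 ± 0.11 at adjusted p = 6.5e-07 and 0.51 ± 0.11 at adjusted p = 1.2e-04. All drug libraries were above all DMSO libraries. In CAMA-1 it rose with abemaciclib (0.40 ± 0.11 at adjusted p = 0.0030), a call lost without DMSO replicate 3 (0.27, adjusted p = 0.054), and with palbociclib it gave 0.14 at adjusted p = 0.36.

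**Figure D2:**
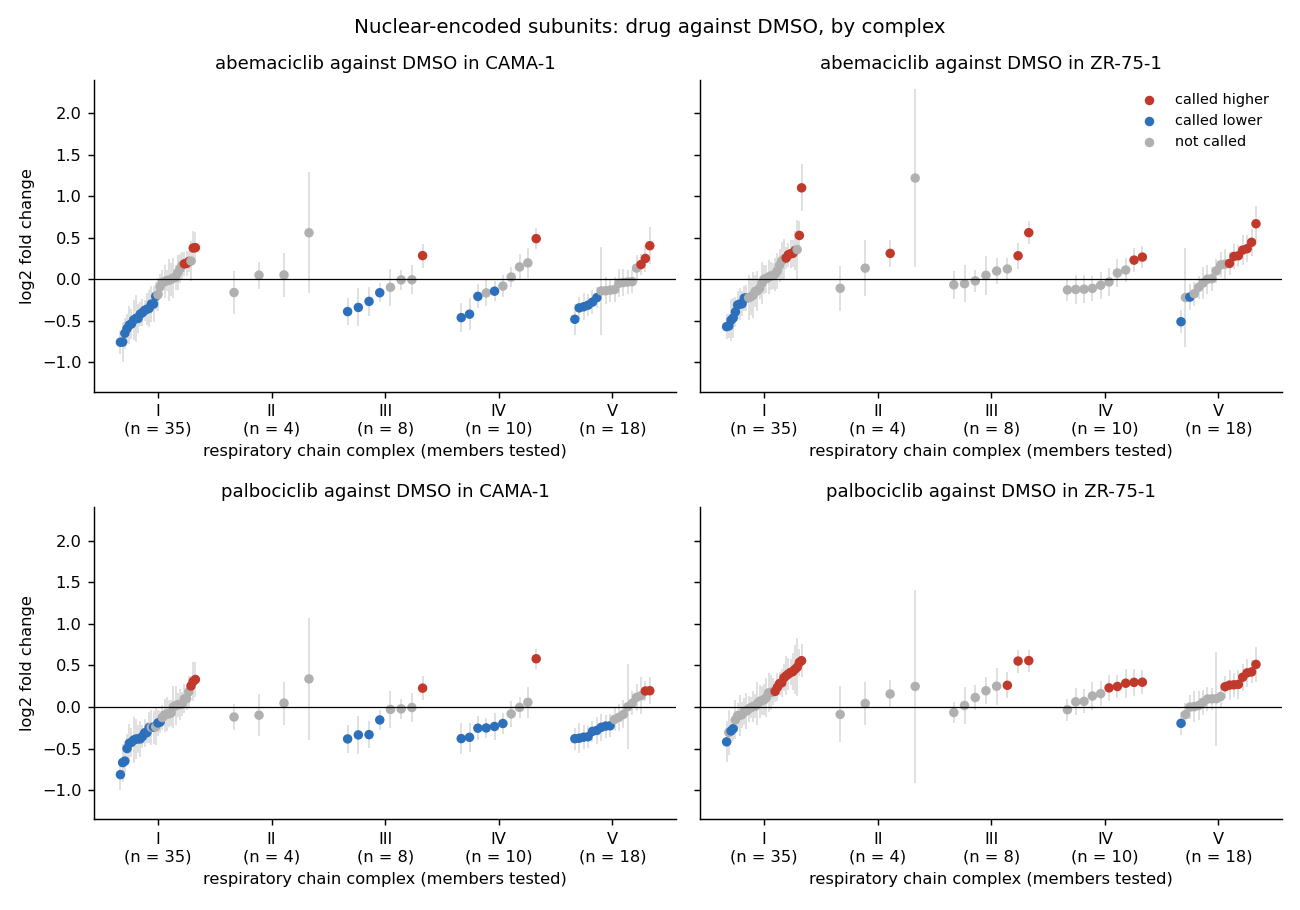
Log2 fold change of each tested member against DMSO, by complex, with 95% limits (grey lines); red points were called higher, blue points lower and grey points were not called. Lower calls prevail on the left for CAMA-1 (31 with abemaciclib, 36 with palbociclib), and higher calls at the lower right for palbociclib in ZR-75-1 (29).

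In all 4 comparisons of a drug with DMSO, 3 members were called lower and 2 higher, against 5.48% and 4.47% of the genes tested in both lines. NDUFS6, a zinc-binding accessory subunit of the peripheral arm of complex I (chr5:1801407-1816048, plus strand, GRCh38), was lower in each. It had 515, 476 and 476 CPM in CAMA-1 with DMSO, 317, 285 and 284 with abemaciclib and 315, 321 and 318 with palbociclib. The ZR-75-1 libraries had 332, 368 and 353 CPM with DMSO, 233, 249.7 and 236 with abemaciclib and 308, 289.9 and 284 with palbociclib, and in both lines every drug library was below every DMSO library. The log2 fold changes were -0.76 ± 0.068 at adjusted p = 2.3e-12 and -0.65 ± 0.067 at adjusted p = 1.3e-10 in CAMA-1 and -0.56 ± 0.074 at adjusted p = 9.5e-09 and -0.26 ± 0.072 at adjusted p = 0.0042 in ZR-75-1. These calls held whichever library was left out.

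NDUFS4, also an accessory subunit of the peripheral arm, fell by 0.75 and 0.44 on the log2 scale in CAMA-1 and by 0.49 and 0.42 in ZR-75-1, each time with abemaciclib first and palbociclib second. Its palbociclib call in ZR-75-1 was lost without DMSO replicate 1 (-0.34, adjusted p = 0.067). ATP5ME, subunit e of the membrane part of the ATP synthase, fell by 0.22 and 0.29 in CAMA-1 and by 0.51 and 0.20 in ZR-75-1, and its last call was lost without palbociclib replicate 2 (-0.16, adjusted p = 0.14) or DMSO replicate 1. MYL5 overlaps ATP5ME on the opposite strand.

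UQCR11, a small subunit of complex III (chr19:1597169-1605473, minus strand), was higher in all 4. In CAMA-1 DMSO gave 315, 298 and 272 CPM, abemaciclib 376, 372 and 354, and palbociclib 341, 348 and 369.7. In ZR-75-1 DMSO gave 350.4, 368 and 362 CPM, abemaciclib 500.3, 556 and 548, and palbociclib 518, 544 and 529, so that no drug library overlapped a DMSO library in either line. The log2 fold changes were 0.29 ± 0.071 at adjusted p = 0.0012 and 0.23 ± 0.071 at adjusted p = 0.0096 in CAMA-1 and 0.56 ± 0.069 at adjusted p = 1.4e-09 and 0.55 ± 0.069 at adjusted p = 3.8e-09 in ZR-75-1. The palbociclib call in CAMA-1 was lost without DMSO replicate 3 (0.16, adjusted p = 0.070) or palbociclib replicate 3. ATP5F1E, the epsilon subunit of the central stalk of the ATP synthase, rose by 0.18 and 0.19 in CAMA-1 and by 0.28 and 0.24 in ZR-75-1. Its CAMA-1 calls were lost without DMSO replicate 1, and that with abemaciclib also without abemaciclib replicate 2 (0.15, adjusted p = 0.089). With library totals as the only scaling, UQCR11 and ATP5F1E were no longer called in CAMA-1 with either drug, although their sign held.

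**Figure D3:**
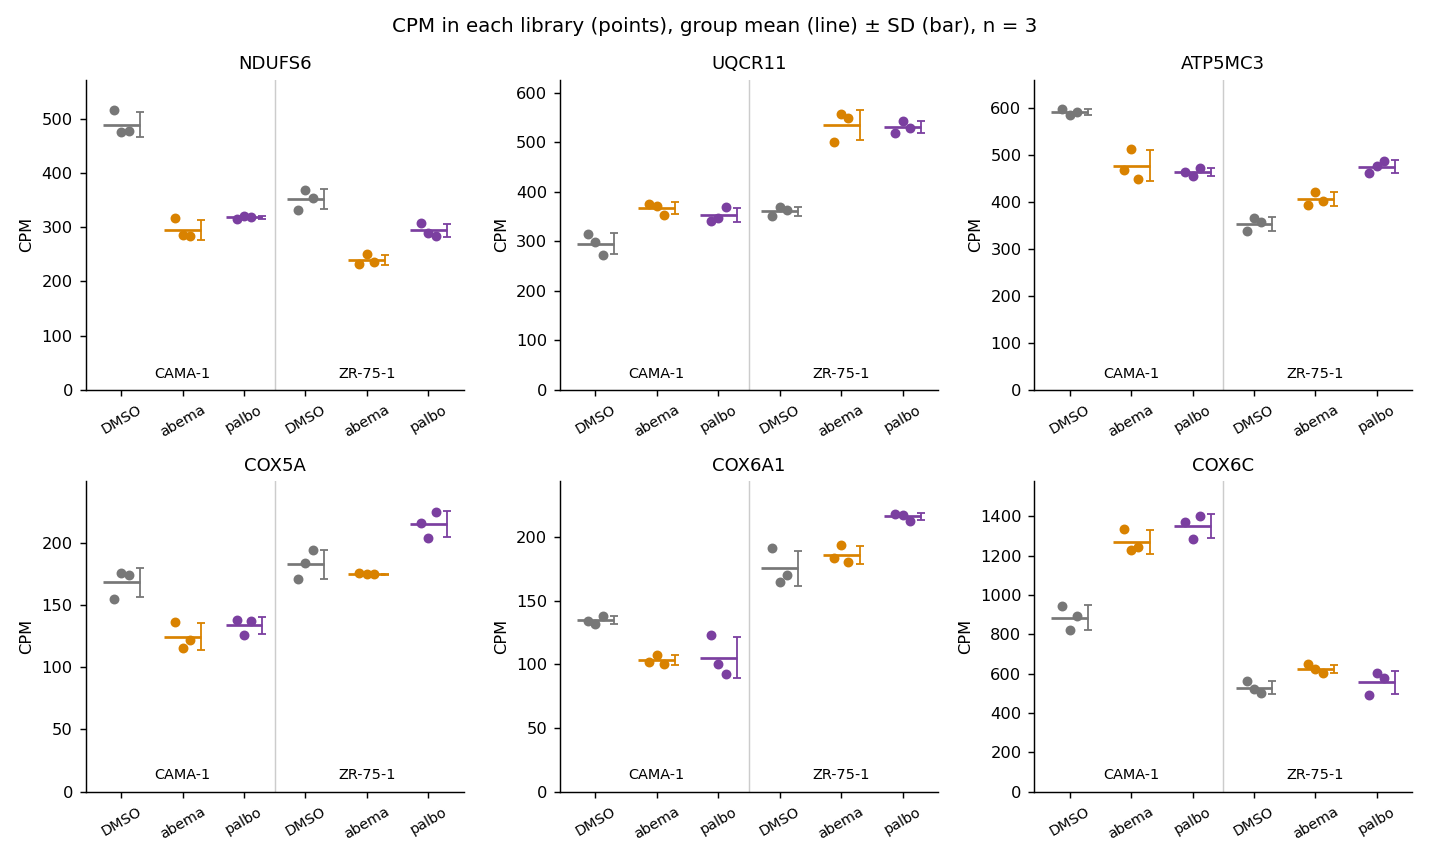
CPM of 6 members in each library (points), with the group mean (line) and SD (bar), n = 3, on axes that start at 0. NDUFS6 falls with both drugs in both lines, UQCR11 rises, ATP5MC3, COX5A and COX6A1 fall in CAMA-1 and rise in ZR-75-1 with palbociclib, and COX6C rises in CAMA-1 to between 1227 and 1403 CPM.

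The promoters of the members were read from RefSeq's 300-base windows on GRCh38.p14, from 250 bases before to 50 bases after the gene's start, and 63 of the 78 members had one. The NRF1 motif GCGCATGCG, on either strand, was in 10 of the 63 windows (15.9%), and in 2.73% of the 15326 windows of protein-coding genes and 2.10% of all 27305 windows. The ETS motif CCGGAAG, which GABP binds, was in 20 windows (31.7%), against 14.4% of coding and 10.7% of all windows. The YY1 motif AAGATGGCG was in 8 (12.7%, against 2.80% and 1.85%), the E2F motif TTTCCCGC in 3 (4.76%, against 2.20% and 1.66%) and the oestrogen-related receptor motif TCAAGGTCA in 1 (1.59%, against 0.241% and 0.359%). NRF1 and ETS matches shared 4 windows, and since GCGCATGCG is nearly its own reverse complement, NRF1 matches on both strands can overlap. NRF1 and GABP are known activators of respiratory chain genes, and a match of letters is a description and not a binding site.

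Members with and without a match are set side by side for the NRF1 and ETS motifs, first with palbociclib. Of the 10 tested members with the NRF1 motif, 5 were lower in CAMA-1, and 1 was higher and 3 lower in ZR-75-1, while of the 51 without it 25 were lower and 5 higher in CAMA-1 and 23 were higher and 1 lower in ZR-75-1. Of the 20 with the ETS motif, 10 were lower and 3 higher in CAMA-1 and 9 were higher and 1 lower in ZR-75-1, and of the 41 without it 20 were lower and 2 higher in CAMA-1 and 15 were higher and 3 lower in ZR-75-1. With abemaciclib the NRF1 group had 5 lower in CAMA-1, and 0 higher and 3 lower in ZR-75-1. The 51 without it had 22 lower and 7 higher, and 14 higher and 7 lower. The ETS group had 9 lower and 3 higher in CAMA-1 with abemaciclib, and 4 higher and 1 lower in ZR-75-1. The 41 without it had 18 lower and 4 higher, and 10 higher and 9 lower.

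The 250 bases before the start are shown for NDUFS6 and UQCR11, which moved in opposite directions with every treatment, and for COX5B and COX6A1, complex IV genes that went opposite ways in the lines with palbociclib. Each runs 5′ to 3′ on the gene's own strand, and capitals mark the matches to the motifs above within these bases. They lie at chr5:1801157-1801406 (plus strand), chr19:1605463-1605712 (minus strand), chr2:97645812-97646061 (plus strand) and chr12:120437863-120438112 (plus strand) in that order.
NDUFS6: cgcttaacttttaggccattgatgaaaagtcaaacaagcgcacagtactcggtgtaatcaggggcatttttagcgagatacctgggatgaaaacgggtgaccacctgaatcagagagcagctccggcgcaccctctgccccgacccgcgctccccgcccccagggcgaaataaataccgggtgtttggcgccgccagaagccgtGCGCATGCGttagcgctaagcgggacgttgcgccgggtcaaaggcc
UQCR11: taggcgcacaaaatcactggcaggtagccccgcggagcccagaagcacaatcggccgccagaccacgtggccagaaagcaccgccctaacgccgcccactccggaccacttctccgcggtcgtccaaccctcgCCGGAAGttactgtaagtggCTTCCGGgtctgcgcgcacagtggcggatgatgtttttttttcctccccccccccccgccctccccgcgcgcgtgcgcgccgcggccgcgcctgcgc
COX5B: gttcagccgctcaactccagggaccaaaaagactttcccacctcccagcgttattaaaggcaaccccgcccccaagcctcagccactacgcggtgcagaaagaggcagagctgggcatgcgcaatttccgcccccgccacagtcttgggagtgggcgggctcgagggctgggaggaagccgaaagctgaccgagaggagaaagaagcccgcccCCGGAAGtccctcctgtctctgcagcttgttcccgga
COX6A1: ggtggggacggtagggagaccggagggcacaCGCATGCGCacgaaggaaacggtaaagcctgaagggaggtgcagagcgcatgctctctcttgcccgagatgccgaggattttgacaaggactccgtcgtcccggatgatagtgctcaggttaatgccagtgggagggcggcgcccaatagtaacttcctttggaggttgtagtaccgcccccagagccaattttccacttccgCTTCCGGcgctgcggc
NDUFS6 has 1 NRF1 match, UQCR11 has 2 ETS matches on opposite strands, COX5B has 1 ETS match, and COX6A1 has an NRF1 match and an ETS match, both on the strand opposite to the gene. These stretches end at the RefSeq start, and those of UQCR11 and COX6A1 overlap the first bases of the gene as GENCODE places it.

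The response of a member in ZR-75-1 was compared with its response in CAMA-1 by an interaction test over all 18 libraries. With palbociclib the log2 fold change was higher in ZR-75-1 for 30 of 75 members and lower for 2, where 10.0% of the 11987 genes tested were higher and 10.3% lower. The median difference was 0.29 over the members and -0.015 over all genes. With abemaciclib 15 members responded higher in ZR-75-1 and 3 lower, against 8.19% higher and 10.0% lower, with medians of 0.16 and -0.033. The median of 0.16 was 0.26 without ZR-75-1 abemaciclib replicate 1 and 0.24 without CAMA-1 DMSO replicate 3. In these fits the median of all genes also moved, to 0.018 and 0.0024. Scaling by library totals alone moved the median difference of all genes to 0.12 for abemaciclib and 0.11 for palbociclib, and then gave 31 members higher and 0 lower and 46 higher and 1 lower, with 1620 genes higher and 837 lower and 1726 higher and 827 lower among all genes.

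By complex, the palbociclib interaction was called higher for 12 of 35 tested members of complex I, 4 of 8 of complex III, 6 of 10 of complex IV and 8 of 18 of complex V, and lower for 1 of complex I and 1 of complex IV. No member of complex II was called. The largest called differences toward ZR-75-1 were those of NDUFC2 (0.81 at adjusted p = 1.1e-04), ATP5MC3 (0.78 at adjusted p = 1.6e-09) and NDUFA11 (0.77 at adjusted p = 2.7e-05) with palbociclib and of NDUFB3 (0.86 at adjusted p = 7.0e-04), NDUFC2 (0.77 at adjusted p = 3.3e-04) and UQCR10 (0.65 at adjusted p = 9.9e-06) with abemaciclib. Across the 75 members, Pearson's r between the log2 fold changes of the lines was 0.41 with palbociclib and 0.63 with abemaciclib (Spearman's rho 0.40 and 0.57), and across the 10124 genes tested in both lines it was 0.40 and 0.58. Genes are not independent replicates, and the members share libraries and depth.

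For 12 members palbociclib gave calls in opposite directions, lower in CAMA-1 and higher in ZR-75-1, and 1.32% of the genes tested in both lines did so. The reverse pair of calls was found for 0 members with either drug, and for 1.55% of these genes with palbociclib and 1.46% with abemaciclib. These were NDUFA4, NDUFA11, NDUFB1 and NDUFV3 of complex I by name, UQCR10 of complex III, COX4I1, COX5A, COX5B, COX6A1 and COX6B1 of complex IV, and ATP5MC3 and ATP5PB of complex V. The interaction was called for all 12, and it stayed called in each of the 18 fits that left out a library. The 12 were picked by opposite calls in the same libraries. That choice nearly sets a called interaction, which is therefore no further support. Both calls within the lines held in all such fits for ATP5MC3, COX4I1, COX6A1 and NDUFB1. The other 8 lost a call in a line in at least 1 fit, such as NDUFA11 in CAMA-1 (-0.24, adjusted p = 0.049), which lost it in 6 of 9 fits, as without DMSO replicate 1 (-0.19, adjusted p = 0.20).

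Complex IV carried 5 of these 12 genes. COX6A1 in CAMA-1 went from 134, 132 and 138 CPM (DMSO) to 123, 99.9 and 92.5 (palbociclib), and in ZR-75-1 from 191, 165 and 170.3 to 218, 217 and 213. Its log2 fold changes were -0.38 ± 0.094 at adjusted p = 0.0012 and 0.30 ± 0.080 at adjusted p = 0.0031, and their difference was 0.65 ± 0.12 at adjusted p = 4.6e-05. The groups did not overlap in either line. COX5A, which joins early in assembly of the complex, went from 155, 176 and 174 CPM (DMSO) to 138, 125 and 137 (palbociclib) in CAMA-1 and from 171, 183 and 194 to 216, 204 and 224 in ZR-75-1. The difference of its responses was 0.57 ± 0.12 at adjusted p = 1.7e-04. Its call in ZR-75-1 (0.23, adjusted p = 0.023) was lost without DMSO replicate 1 (0.18, adjusted p = 0.15) or palbociclib replicate 3.

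COX5B, the zinc-binding subunit, fell by 0.25 in CAMA-1 and was 0.29 higher in ZR-75-1 on the log2 scale with palbociclib, with a difference of 0.51 ± 0.11 at adjusted p = 2.8e-04. Its ZR-75-1 call was lost without DMSO replicate 3 (0.25, adjusted p = 0.052). COX4I1, the largest nuclear-encoded subunit of the complex, gave -0.25 at adjusted p = 5.9e-04 and 0.25 at adjusted p = 0.0038 and a difference of 0.47 at adjusted p = 4.3e-05. With abemaciclib COX4I1, ATP5MC3 and UQCR10 were also called lower in CAMA-1 and higher in ZR-75-1, as were 0.958% of the genes tested in both lines. For COX4I1 that call in CAMA-1 (-0.14, adjusted p = 0.049) was lost in 7 of 9 fits, as without DMSO replicate 1 (-0.13, adjusted p = 0.14), and for ATP5MC3 that in ZR-75-1 (0.19, adjusted p = 0.026) without DMSO replicate 1 (0.16, adjusted p = 0.12) or abemaciclib replicate 2.

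The reverse difference, a higher response in CAMA-1, was called for members that included COX6C with palbociclib (-0.54 at adjusted p = 1.6e-05), and COX6C and ATP5ME with abemaciclib. In ZR-75-1 COX6C had 565, 520.3 and 504 CPM with DMSO, 647, 624 and 603 with abemaciclib and 491, 603 and 578 with palbociclib. The difference for COX6C with abemaciclib (-0.28, adjusted p = 0.032) was lost in 15 of 18 fits, as without CAMA-1 DMSO replicate 2 (-0.18, adjusted p = 0.25). That for ATP5ME (-0.31 at adjusted p = 0.011) was lost in 5 of 18, those without CAMA-1 DMSO replicate 2 (-0.21, adjusted p = 0.14), CAMA-1 abemaciclib replicate 2 or 3, ZR-75-1 DMSO replicate 2 or ZR-75-1 abemaciclib replicate 1. Of the 3 members called here with abemaciclib 1 was left without any one of these 5 libraries, and of the 2 with palbociclib 1 was left without CAMA-1 DMSO replicate 1 or 2, CAMA-1 palbociclib replicate 1 or 3, ZR-75-1 DMSO replicate 2 or ZR-75-1 palbociclib replicate 3. With library totals as the only scaling, COX6C and ATP5ME were not called with abemaciclib.

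**Figure D4:**
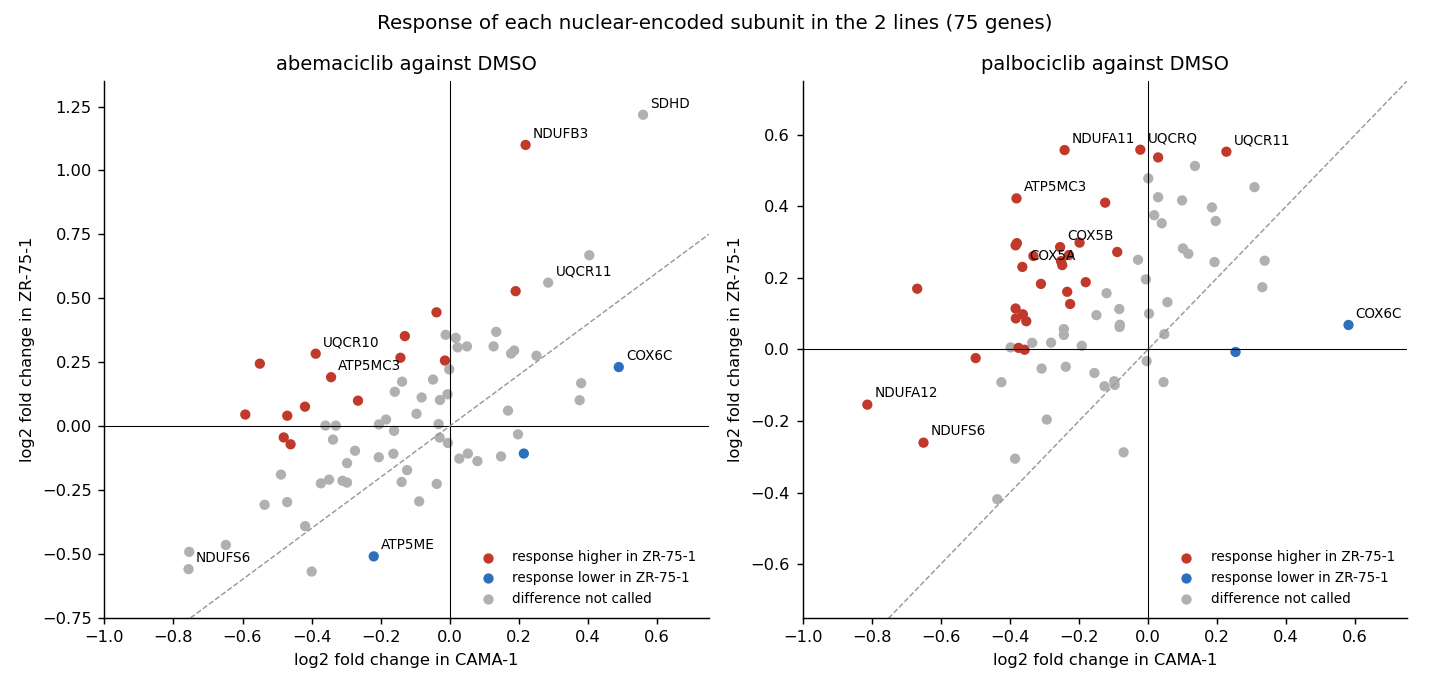
Log2 fold change of each of the 75 tested members in CAMA-1 (horizontal) and ZR-75-1 (vertical), for abemaciclib and palbociclib; red and blue points differ between the lines in the interaction test, and the dashed line marks equal responses. With palbociclib 30 members lie above the line with a called difference and 2, COX6C among them, below it.

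Among the core subunits of complex I, which are shared with the bacterial enzyme, the directions were mixed. NDUFS1 rose in CAMA-1 with both drugs, NDUFS3 (-0.30 and -0.38) and NDUFS8 (-0.20 and -0.31) fell there with both, NDUFV1, the NADH-binding flavoprotein, rose in ZR-75-1 with both (0.31 and 0.42), and NDUFS7 was called in none of the 4. The groups of NDUFS8 overlapped with abemaciclib, where its adjusted p was 0.046. Accessory subunits also went both ways. NDUFB10, of the membrane arm, measured 356, 374 and 380.4 CPM in the DMSO libraries of ZR-75-1, 238, 259 and 256 in its abemaciclib libraries and 405, 357 and 359 in its palbociclib libraries, a log2 fold change of -0.57 ± 0.074 at adjusted p = 6.5e-09 with abemaciclib and 0.01 ± 0.072 at adjusted p = 0.94 with palbociclib. NDUFB4 was lower in ZR-75-1 with both drugs (-0.29 and -0.29) and was not called in CAMA-1.

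Complex II gave a single call. SDHC, a membrane anchor, had 198, 188 and 223 CPM with DMSO and 246, 240.0 and 275 with abemaciclib in ZR-75-1, a log2 fold change of 0.31 ± 0.083 at adjusted p = 0.0019. SDHA, which binds the flavin, and SDHB, the iron-sulfur subunit, had log2 fold changes between -0.16 and 0.13 in the 4 comparisons, with adjusted p from 0.34 to 0.85. Their 95% limits reached from -0.42 to 0.47. SDHD, the other anchor, had between 0.920 and 8.43 CPM, and was not called in ZR-75-1 with abemaciclib (1.22, adjusted p = 0.069), where its unadjusted 95% limits were 0.15 and 2.29.

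In complex V the genes ATP5MC1, ATP5MC2 and ATP5MC3 encode the same mature subunit c of the rotor ring and differ in the targeting peptide, and they did not move together. ATP5MC3 (chr2:175176258-175181710, minus strand) measured 597, 584 and 592 CPM in the DMSO libraries of CAMA-1, 468, 512 and 448 in its abemaciclib libraries and 463, 455 and 473 in its palbociclib libraries. In ZR-75-1 DMSO gave 337, 366 and 357 CPM, abemaciclib 393, 422 and 401, and palbociclib 460.3, 476 and 487, so that the drug libraries lay below DMSO in one line and above it in the other. Its log2 fold change with palbociclib was -0.38 ± 0.065 at adjusted p = 6.4e-06 in CAMA-1 and 0.42 ± 0.069 at adjusted p = 2.2e-06 in ZR-75-1. ATP5MC1 rose in ZR-75-1, by 0.45 ± 0.082 at adjusted p = 1.4e-05 with abemaciclib and 0.41 ± 0.082 at adjusted p = 7.6e-05 with palbociclib, and gave -0.038 at adjusted p = 0.75 and -0.12 at adjusted p = 0.25 in CAMA-1. ATP5MC2 was called in none of the 4, with log2 fold changes from -0.17 to 0.045.

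The peripheral stalk of the ATP synthase, built from ATP5PB, ATP5PD, ATP5PF and ATP5PO, was lower with palbociclib in CAMA-1 in all 4 genes, by 0.23, 0.24, 0.28 and 0.36 on the log2 scale, although the groups of ATP5PD overlapped. In that comparison 9 of 18 tested members of complex V and 18.7% of all genes were called lower. With abemaciclib in CAMA-1 only ATP5PF and ATP5PO of the stalk genes were called, both lower. In ZR-75-1 ATP5PB was higher with both drugs, by 0.35 and 0.26, and ATP5PO was lower with abemaciclib, by 0.21. The CAMA-1 call of ATP5PB was lost without palbociclib replicate 2 (-0.18, adjusted p = 0.060), and its palbociclib call in ZR-75-1 was lost in 4 of 9 fits that left out a library, as without palbociclib replicate 3 (0.21, adjusted p = 0.13).

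Abemaciclib and palbociclib were compared directly at their shared dose and time, as 1 pair in each line. In CAMA-1 edgeR called 0 of the 75 members, as did DESeq2, where the shares over all genes were 0.796% (abemaciclib higher) and 1.53% (abemaciclib lower). An unadjusted p under 0.05 was found for 11 members and for 12.9% of all genes. The 95% limits of the difference lay within 0.5 on the log2 scale for 72 members and within 1 for all 75, with the outermost limits at -0.67 for ATP5MGL and 0.92 for SDHD. In ZR-75-1 the drugs differed for 16 members, of which 15 were lower with abemaciclib, against 7.94% lower and 5.23% higher over all genes, and the median difference was -0.10. The 16 were 10 without ZR-75-1 abemaciclib replicate 3, and the median was -0.060 without ZR-75-1 palbociclib replicate 1. For 54 of the 59 members not called, the limits lay within 0.5.

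The members lower with abemaciclib than with palbociclib in ZR-75-1 included NDUFB10 (-0.58 at adjusted p = 1.7e-08), NDUFA11 (-0.53 at adjusted p = 6.7e-05), NDUFA6 (-0.47 at adjusted p = 5.6e-05), UQCRQ (-0.43 at adjusted p = 1.4e-06) and COX5B (-0.41 at adjusted p = 5.3e-04). NDUFA11, of the membrane arm of complex I, had 94.6, 94.5 and 78.8 CPM with DMSO in that line, 87.3, 102 and 84.9 with abemaciclib and 139.7, 127 and 129 with palbociclib. Its palbociclib libraries stood above the others, which overlapped. NDUFB3 alone was higher with abemaciclib (0.65 at adjusted p = 3.2e-04).

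Between the lines with DMSO, several members differed by more than with any drug. With DMSO 17 members were higher in ZR-75-1 and 34 lower than in CAMA-1, where 31.5% of all genes were higher and 29.8% lower, and 10 were higher and 44 lower with library totals as the only scaling, which moved the median of all genes to -0.15. For ATP5PB, CAMA-1 gave 349, 341 and 339 CPM and ZR-75-1 117, 111 and 120.2, a log2 difference of -1.57 ± 0.079 at adjusted p = 1.4e-26. NDUFA9, at the junction of the arms of complex I, went the other way, with 44.7, 40.5 and 45.7 CPM in the CAMA-1 libraries and 129.7, 112 and 115 in those of ZR-75-1, a log2 difference of 1.44 ± 0.11 at adjusted p = 2.4e-18. NDUFB9 (-1.53 at adjusted p = 3.2e-28) and NDUFA6 (-1.36 at adjusted p = 6.2e-24) were also among the largest differences toward CAMA-1, and ATP5F1A, the alpha subunit (0.94 at adjusted p = 8.9e-17), toward ZR-75-1. Only 1 cell line stands on each side of this comparison.

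The 13 subunits from mitochondrial DNA, which join these proteins in complexes I, III, IV and V, were mostly called higher in CAMA-1. With abemaciclib 12 were higher and 1 lower, with a median log2 fold change of 0.95, and with palbociclib 12 were higher and 0 lower, with a median of 0.86. MT-ND3 had 10654, 10186 and 9237 CPM with DMSO in that line, 25136, 21630 and 23834 with abemaciclib and 19834, 21760 and 21024 with palbociclib. ZR-75-1 differed, where 2 were higher and 5 lower with abemaciclib and 0 higher and 7 lower with palbociclib, with medians of -0.16 and -0.22. The DMSO libraries of ZR-75-1 were uneven, with summed levels of 132236, 103630 and 152735 CPM. They overlapped the sums with abemaciclib (108376 to 127536) and palbociclib (114034 to 120293). Whether the calls of these 13 genes hold with a library left out was not tested. The response was lower in ZR-75-1 than in CAMA-1 for all 13 with abemaciclib and for 12 with palbociclib. The exception to the rise in CAMA-1 was MT-ND6, whose log2 fold change was -0.30 ± 0.091 at adjusted p = 0.0062 with abemaciclib and -0.091 ± 0.089 at adjusted p = 0.45 with palbociclib there and -1.81 ± 0.10 at adjusted p = 1.7e-21 and -0.59 ± 0.093 at adjusted p = 1.1e-06 in ZR-75-1. These RNAs have near-identical nuclear copies and opposite-strand neighbours, and the kit primes on poly(A), so their counts are less certain.

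Assembly factors of complex I, which build the enzyme and are not part of it, had 18 tested genes. The shares of all genes to set beside the counts of these lists are, with abemaciclib and palbociclib, 20.1% and 18.7% lower and 20.3% and 18.4% higher in CAMA-1, and 18.3% and 13.4% lower and 17.9% and 14.5% higher in ZR-75-1. In CAMA-1, 7 were lower and 1 higher with abemaciclib and 6 lower and 1 higher with palbociclib, and in ZR-75-1, 2 were lower and 3 higher and 1 lower and 2 higher. NDUFAF8 went from 242, 215 and 239 CPM (DMSO) to 170.1, 173 and 211 (palbociclib) in CAMA-1 and from 263, 299 and 255 to 360.5, 365 and 368 in ZR-75-1, log2 fold changes of -0.36 ± 0.086 at adjusted p = 6.5e-04 and 0.42 ± 0.073 at adjusted p = 8.8e-06. It was thus called in opposite directions in the lines. COA1 fell by 1.02 and 0.64 in CAMA-1. Of 26 assembly factors of complex IV, 6 were lower, a share near that of all genes, and 0 higher in CAMA-1 with each drug, among them COX17, the copper chaperone (-0.62 at adjusted p = 3.0e-08 with abemaciclib and -0.74 at adjusted p = 4.7e-10 with palbociclib), and SURF1 (-0.72 at adjusted p = 2.0e-05 with abemaciclib). In ZR-75-1, 1 was higher and 2 lower with each drug. For complex III, 2 of 9 were higher with each drug in each line, LYRM7 and TTC19, and 3 and 2 were lower in CAMA-1 with abemaciclib and palbociclib. Of 5 factors of complex V, 2 were lower with abemaciclib and 1 with palbociclib in CAMA-1 and 0 were called in ZR-75-1, and FMC1 fell by 1.05 and 1.53 in CAMA-1 and TMEM70 by 0.42 there with abemaciclib. In complex II, only SDHAF1 of 3 tested factors was called, lower with abemaciclib in CAMA-1 (adjusted p = 0.039).

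Regulators of mitochondrial biogenesis were called lower in CAMA-1 at shares near those of all genes. Of 16 tested, 4 were lower in CAMA-1 with each drug, 1 was higher there with abemaciclib and 0 with palbociclib, and 2 and 3 were lower and 0 and 1 higher in ZR-75-1. TFAM, which starts transcription of mitochondrial DNA and packs it, was lower in all 4 comparisons (-0.53 at adjusted p = 1.2e-04 and -0.30 at adjusted p = 0.026 in CAMA-1, -0.32 at adjusted p = 0.017 and -0.46 at adjusted p = 7.1e-04 in ZR-75-1), and SLIRP, which binds mitochondrial RNA, was lower with abemaciclib in CAMA-1 (-0.42 at adjusted p = 2.7e-05). Of 13 citric acid cycle enzymes, 5 were lower with each drug in CAMA-1 and 2 and 3 were higher, and in ZR-75-1 2 and 1 were lower and 2 and 2 were higher. IDH3B and MDH2 had the smallest adjusted p of these (-0.67 at adjusted p = 1.5e-06 and -0.52 at adjusted p = 1.8e-06 with abemaciclib in CAMA-1). Of the 5 tested alternative or late-named subunits, 2 were lower with each drug in CAMA-1, ATP5IF1, the ATP synthase inhibitor, and NDUFAB1, the acyl carrier protein, and 1 with abemaciclib in ZR-75-1.

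A few members had too few counts to test. NDUFA7 had 2 to 15 counts in a library, NDUFV2, a core subunit of complex I, 0 to 6, and ATP5MF-PTCD1, a read-through gene, 1 count in all, and none was tested. NDUFV2 had 25 counts over all libraries, while a pseudogene named after it had 1510, and whether reads of the gene were counted there was not tested. ATP5MGL lies within CYB5R3 on the same strand. SDHD, NDUFA7 and NDUFV2 are each overlapped by another gene on the same strand, and whether this lowered their counts was not tested. Of the 78 members, 49 have a pseudogene named after them in the table, with 2664 counts in all, or 0.231% of the members' counts. A gene on the same strand overlaps 32 members. One on the opposite strand overlaps 35, and reads from those pairs cannot be told apart if the counting did not use strand.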

How the data were processed

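RNA of 18 libraries was read with a 3′ kit, in 2 lines with 3 treatments and 3 replicates each, grouped by the sample labels. The authors deposited raw read counts per gene (60656 rows, GENCODE 35), and the submitters' processing notes name STAR 2.7.5b, featureCounts 2.0.1 and hg38. Whether counting used strand is not given in the sources used here, and the kit's read direction differs between the labels and the methods. Symbols could be given to 60401 identifiers, and coordinates came from GENCODE 44 on GRCh38. The table had 0 columns of other samples.

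Counts were analysed in R 4.3.3 with edgeR 4.0.16 (filterByExpr, TMM, quasi-likelihood F test, Benjamini-Hochberg adjustment over all genes tested). Each line was fitted on its own 9 libraries for the drug comparisons, and all 18 libraries together for the differences between lines. SE was derived from the log2 fold change and F. Library totals of 2308442 to 4146549 counts set the precision, and the biological coefficient of variation was 8.12% to 8.30%. The edgeR fit was tried on simulated counts for abemaciclib against DMSO in CAMA-1 only, and the other steps were not tried in this way.

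The members and gene lists were chosen with earlier results of these data known. Members named are the 3 largest called rises and falls in each comparison, those called alike in all 4 comparisons with DMSO, those called oppositely in the lines, complex II and ATP5MC1 to ATP5MC3. Core subunits of complex I and the peripheral stalk of the ATP synthase were named by their role, after their values were seen. Up to 2 called genes with the smallest adjusted p are named per list. Alternatives were RLE or library-total scaling, no count filter, leaving out mitochondrially encoded genes, DESeq2 1.42.0, a replicate block and leaving out each library. The sum of complex IV without COX6C was added after the values were seen. The values of 1 member are not reported here.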

Additional observations from a re-analysis of the deposited data

Results flagged for a closer look

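The response to a drug differed between the lines by the interaction test of edgeR for the following. Members called in opposite directions were picked in the same libraries, which nearly sets a called difference for them. With palbociclib 30 members responded higher in ZR-75-1 than in CAMA-1 and 2 lower. Among those called in opposite directions, the difference of the log2 fold changes was 0.78 for ATP5MC3, 0.77 for NDUFA11, 0.65 for COX6A1, 0.65 for NDUFB1, 0.57 for COX5A and 0.57 for UQCR10. It was 0.51 for COX5B, 0.47 for COX4I1, 0.47 for COX6B1, 0.47 for ATP5PB, 0.46 for NDUFV3 and 0.34 for NDUFA4. The mitochondrially encoded subunits differed the other way, with 12 lower in ZR-75-1.

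With abemaciclib 15 members responded higher in ZR-75-1 and 3 lower. The members called in opposite directions differed by 0.65 for UQCR10, 0.51 for ATP5MC3 and 0.39 for COX4I1. All 13 mitochondrially encoded subunits responded lower in ZR-75-1. The groups of 3 libraries were too small for a search for single libraries that stand apart.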

How the results depend on the processing

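Among values of named genes under an alternative, 2990 kept direction and side of the threshold, 196 lost the call, 65 gained it and 0 reversed. With library totals as the only scaling, the abemaciclib difference between the lines was called for 31 members in place of 18. Leaving out 1 library gave 33 to 41 called members for abemaciclib and 32 to 42 for palbociclib in CAMA-1, and 27 to 33 and 26 to 33 in ZR-75-1. It gave 14 to 22 and 29 to 38 for the differences between lines, 44 to 51 for the DMSO levels, 0 to 1 between the drugs in CAMA-1 (1 without CAMA-1 DMSO replicate 3 or abemaciclib replicate 3) and 10 to 17 in ZR-75-1 (10 without ZR-75-1 abemaciclib replicate 3). RLE scaling, DESeq2, no count filter and the table without mitochondrially encoded genes kept every count within 1.5 times. Low counts limit SDHD, and NDUFA7 and NDUFV2 were not tested.

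With the replicate number as a block, 39 and 41 members were called in CAMA-1, 31 and 33 in ZR-75-1 (abemaciclib, palbociclib), 0 and 15 between the drugs, 17 and 30 between the lines and 51 for the DMSO levels. Libraries of a line with the same number had correlations of their deviations from -0.074 to 0.048 over 18 pairs. No shared effect of the number was detected, and this cannot tell whether the libraries were paired in the experiment.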
